A study of Homo sapiens with 20 samples.

Results

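The 33 genes described here encode the subunits of Mediator, including the separable kinase module. They were taken by symbol, as rows named for a Mediator subunit in the tables of both experiments, a rule that uses no measured value. All 33 were found among the 26485 rows, all 33 passed the filter of a mean of at least 0.5 reads per 1000000 (RPM) that left 15958 genes, and the row coordinates of all 33 were the same in both tables. By module, 7 belong to the head, 9 to the middle, 1 is the scaffold MED14, 5 belong to the tail, 4 (MED27, MED28, MED29 and MED30) are placed with the head in some structures and with the tail in others, and 7 form the kinase module.

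Mediator is the large coactivator complex that passes signals from DNA-bound transcription factors to RNA polymerase II. The head and the middle contact the polymerase and the initiation factors, MED14 runs through the complex as its backbone, and the tail holds many of the surfaces that activators bind. The kinase module (CDK8 or its paralog CDK19, cyclin C, MED12 or MED12L, and MED13 or MED13L) binds the core reversibly and, while bound, hinders the polymerase from docking. The tumour suppressor p53 contacts Mediator through its activation domain, and MED1 and MED17 are among the subunits reported to bind it.

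The study asked, by its title, what a stapled peptide that blocks the binding of p53 to Mediator does to the p53 response. HCT116 cells, an established colorectal carcinoma line labelled wild type, were electroporated with the peptide at 10 µM or with water and then kept for 3 hours in 0.1% DMSO with or without 10 µM Nutlin-3a, which frees p53 from MDM2. Peptide cells had a further 200 nM of peptide in the medium. The 4 groups were Nutlin-3a and peptide, Nutlin-3a and water, DMSO and peptide, and DMSO and water, each with 3 libraries in experiment 2 and 2 in experiment 1, and every library came from electroporated cells of this line, from RNA of isolated nuclei depleted of ribosomal RNA. No label says that libraries of a group came from separate cultures, so p-values measure the spread between libraries.

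The 12 libraries of experiment 2 held 18787172 to 47407746 reads and the 8 of experiment 1 held 36717795 to 63896604. Member rows held between 35 reads (MED7) and 49334 reads (MED13L) in a library. Epithelial markers were present, with KRT8 at 990 to 2021 RPM and EPCAM at 72.6 to 414 RPM, although VIL1 did not pass 0.431 RPM. The summed level of 12 markers of other cells was 51.2 to 136 RPM in experiment 2 and 150 to 485 RPM in experiment 1, most of it SYT1 and COL1A1. In experiment 2 SYT1 averaged 41.0 RPM and COL1A1 44.9 RPM, and in experiment 1 SYT1 averaged 363 RPM and COL1A1 12.5 RPM. PTPRC, CD3E, COL1A2 and COL3A1 did not pass 0.150 RPM in any library, and the part of these markers in the differences between the experiments was not tested. From here on, values compared between libraries are RPM after scaling by the trimmed mean of M values. CDKN1A, the cell cycle inhibitor that p53 induces, checked the action of Nutlin-3a. In experiment 2 it averaged 74.7 ± 26.1 RPM with Nutlin-3a and peptide, 80.7 ± 27.5 RPM with Nutlin-3a and water, 59.1 ± 11.3 RPM with DMSO and peptide and 49.5 ± 11.1 RPM with DMSO and water (SD, n = 3 each). In experiment 1 it averaged 45.1 ± 4.64 RPM with Nutlin-3a and peptide, 148 ± 43.1 RPM with Nutlin-3a and water, 41.4 ± 1.56 RPM with DMSO and peptide and 37.0 ± 0.927 RPM with DMSO and water (SD, n = 2 each). Nutlin-3a over DMSO without peptide gave CDKN1A a log2 change of 1.18 and MDM2, the p53 target that degrades p53, one of 0.96, neither of which passed limma's adjusted threshold. These values are shares of a library, so fewer cells and less RNA per cell cannot be told apart.

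Promoter sequences were available for 25 of the 33 members, as 30 entries from RefSeq on build GRCh38.p14, and the 250 bases before the start of each entry were read. The start of an entry can differ from that of the member's row, so some windows run into the row. They are shown because the peptide acts on p53, which binds DNA near the genes it controls. The p53 half-site consensus was found on either strand in 0 of 30, against 5.57% of 35116 promoters of all genes. TATAAA was found on either strand in 2 of 30 (MED7 and MED16; 6.67% against 10.7% of all), GGGCGG in 17 of 30 (56.7% against 42.6%) and CGGAAG in 9 of 30 (30.0% against 16.5%). Member promoters had a median GC content of 58.2% and all promoters 58.0%. The 4 shown are those of MED17, a head subunit that p53 binds, of MED27, whose level differed most with the peptide under Nutlin-3a, of MED31, which had the largest positive difference between the experiments, and of MED13L, which had the second largest negative one. Capitals mark GGGCGG and CGGAAG on either strand, overlapping matches included, and a match is a description of the letters only. The MED17 window is chr11:93784032-93784281 on the plus strand, and the others, on the minus strand, are chr9:132079868-132080117 (MED27), chr17:6651606-6651855 (MED31) and chr12:116277694-116277943 (MED13L). The MED17 row starts at chr11:93784239, inside its window, and the other windows shown lie outside their rows.
MED17: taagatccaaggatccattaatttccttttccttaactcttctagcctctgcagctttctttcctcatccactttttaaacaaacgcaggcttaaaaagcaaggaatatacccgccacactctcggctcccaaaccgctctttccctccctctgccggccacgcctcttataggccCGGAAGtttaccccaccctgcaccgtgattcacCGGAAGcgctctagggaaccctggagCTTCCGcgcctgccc
MED27: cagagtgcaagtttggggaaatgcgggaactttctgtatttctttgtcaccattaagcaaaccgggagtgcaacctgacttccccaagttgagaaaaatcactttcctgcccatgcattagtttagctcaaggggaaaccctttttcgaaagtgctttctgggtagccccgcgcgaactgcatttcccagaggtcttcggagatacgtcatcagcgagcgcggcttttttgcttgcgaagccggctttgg
MED31: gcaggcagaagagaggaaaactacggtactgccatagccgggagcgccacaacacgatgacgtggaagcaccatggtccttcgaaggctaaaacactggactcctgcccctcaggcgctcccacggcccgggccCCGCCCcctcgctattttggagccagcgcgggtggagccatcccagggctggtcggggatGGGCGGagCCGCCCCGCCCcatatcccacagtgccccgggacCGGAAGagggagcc
MED13L: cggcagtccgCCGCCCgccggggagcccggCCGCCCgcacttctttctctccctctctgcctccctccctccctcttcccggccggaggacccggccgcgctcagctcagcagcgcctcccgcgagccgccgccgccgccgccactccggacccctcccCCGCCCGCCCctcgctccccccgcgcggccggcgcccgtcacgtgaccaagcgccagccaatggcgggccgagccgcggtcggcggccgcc
In these windows MED17 held CGGAAG at 3 places and no GGGCGG, MED31 held GGGCGG at 4 places and CGGAAG at 1, MED13L held GGGCGG at 4 places, 2 of them overlapping, and no CGGAAG, and MED27 held neither.

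Every subunit was measurable in nuclear RNA of these cells, and levels differed widely between subunits that work in 1 complex. Levels between genes are given as RPM per kilobase of row span, which includes introns. Whether exons or whole spans were counted is not given in the sources used here. The order of levels per kb therefore depends on this choice of length. The median member stood at 2.21 RPM per kb in experiment 2 and 1.497 in experiment 1, against medians over all genes tested of 1.03 in experiment 2 and 0.811 in experiment 1. MED8, a head subunit, was the highest in both, with 8.22 ± 1.68 RPM per kb in experiment 2 (SD, n = 12) and 3.55 ± 0.200 in experiment 1 (SD, n = 8). MED12L was the lowest in both, with 0.0243 ± 0.00915 RPM per kb in experiment 2 (SD, n = 12) and 0.112 ± 0.0259 in experiment 1 (SD, n = 8).

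By module, the median level in experiment 2 was 3.33 RPM per kb in the head, 3.31 in the middle, 1.98 in the tail, 1.201 over MED27 to MED30, 0.877 for MED14 and 0.708 in the kinase module. In experiment 1 the order differed: the tail stood at 2.12 RPM per kb, the head at 1.63, the kinase module at 1.34, the middle at 1.23, MED27 to MED30 at 1.14 and MED14 at 0.745. As a ratio of the highest to the lowest member, the kinase module had the widest spread of any module in both experiments. In experiment 2 cyclin C (CCNC), the partner that activates CDK8 and CDK19, was at 5.78 ± 0.611 RPM per kb (SD, n = 12), the kinases CDK8 at 0.268 ± 0.0700 and CDK19 at 0.189 ± 0.0546. In experiment 1 CCNC was at 1.98 ± 0.635 RPM per kb (SD, n = 8), CDK8 at 0.481 ± 0.130 and CDK19 at 0.174 ± 0.0404. Per kb, CCNC lay above both kinases in every library. In RPM with no length it averaged 37.7 in experiment 1, against 71.8 for CDK8. The lowest CCNC level, 0.547 RPM per kb, was in the library of experiment 1 that stood apart, described next to the comparisons, where CDK8 was at 0.198.

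**Figure D1:**
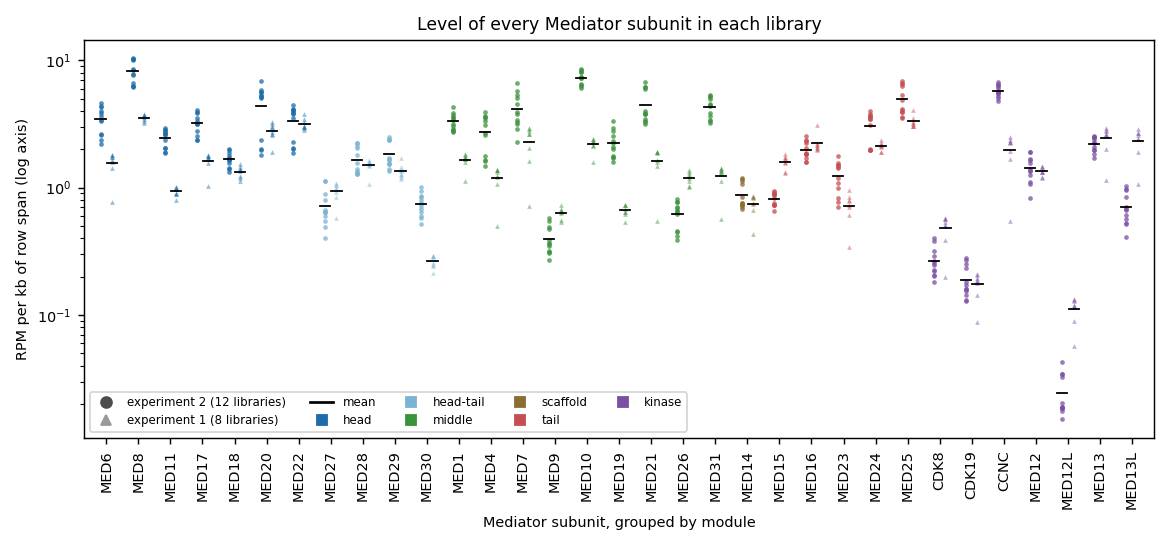
Level of each of the 33 subunits in every library, in RPM per kilobase of row span on a log axis, with circles for the 12 libraries of experiment 2, triangles for the 8 of experiment 1 and a bar at each mean. MED8 lies at the top in both experiments (on average 8.22 in experiment 2 and 3.55 in experiment 1), MED12L at the bottom (0.0243 in experiment 2 and 0.112 in experiment 1), and the kinase module spans the widest range on this axis.

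The rows do not all cover their genes. Against GENCODE v29 on GRCh38, the row covered at least 90% of the gene for 14 members and under 50% for 6. MED27, at chr9:132073351-132079844 on the minus strand, covered 2.95% of a gene of 219.8 kb, and MED7, at chr5:157138440-157139431, covered 4.59% of its gene. The others under that limit were MED21 (18.6%), MED20 (26.3%), MED4 (35.1%) and MED28 (47.1%). Rows of other genes lie inside 6 members, on the same strand in MED24, MED25 and MED13L and on the opposite strand in MED4, MED14 and MED12L, and the strand handling of the counting is not given in the sources used here.

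Before any comparison, 1 library of experiment 1, the second replicate of Nutlin-3a and water, stood apart. Its log2 values correlated with those of the other 7 libraries of experiment 1 at r = 0.953 to 0.968, where those 7 correlated with each other at 0.987 to 0.997 across genes, and its scaling factor was 0.691 where the others lay between 0.801 and 1.23. After scaling, 18 of 33 members lay below the range of the other 7 libraries, 9 above it and 6 within it. CCNC was at 0.330 times their geometric mean, MED21 at 0.421 times, MED7 at 0.470 times and CDK8 at 0.495 times, while MED16 was at 1.88 times and MED29 at 1.67 times. The share of all genes outside that range is not given here, so whether the counts are particular to Mediator was not tested. The log2 deviation from the mean of the other 7 libraries had a median of -0.239 over members and -0.0708 over all genes tested. It was under -1 for 4 of 33 members and for 6.498% of all genes tested. The log2 deviation was higher at higher GC content of the longest annotated transcript, with Spearman's rho 0.90 over the 33 members and 0.81 over the 14871 tested genes with a GC value, as a description across genes that share the library. Members ranged from 36.7% GC (MED4) to 64.8% GC (MED16), tail transcripts other than MED23 lay between 56.7% and 64.8%, and kinase module transcripts other than MED12 between 38.7% and 45.3%. The part of GC content in these values was not tested.

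**Figure D2:**
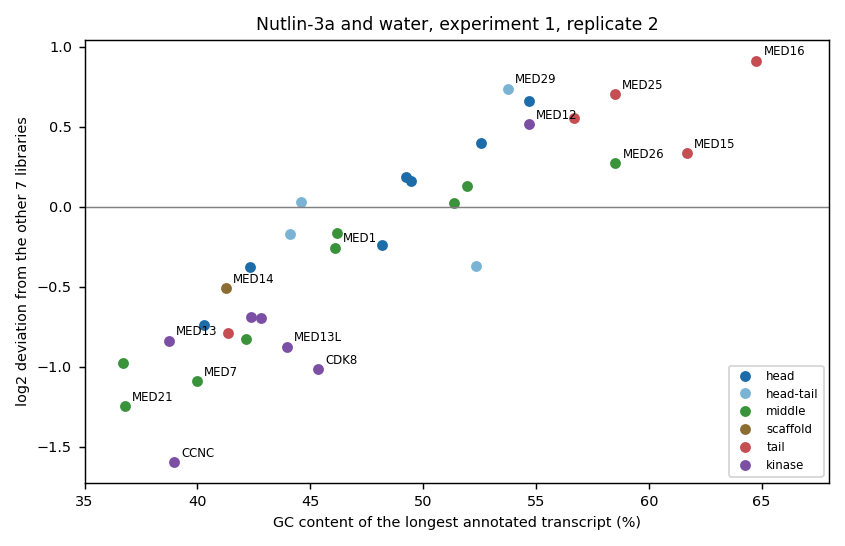
Log2 deviation of the second replicate of Nutlin-3a and water in experiment 1 from the mean of the other 7 libraries of that experiment, after scaling, against the GC content of each subunit's longest annotated transcript in percent. The points climb from CCNC at 0.330 times the others to MED16 at 1.88 times.

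The peptide left Mediator transcripts without a detectable change in either medium. With Nutlin-3a, 0 of 33 members passed limma's test for peptide against water at an adjusted p under 0.05, on a background of 0% of 15958 genes. At an unadjusted p under 0.05 there were 0 of 33 members, against 0.483% of all genes, and limma-voom on whole reads also called 0. Without Nutlin-3a the counts were again 0 called (background 0%) and 0 at an unadjusted p under 0.05 (background 0.094%). The smallest adjusted p of a member was 0.999988 with Nutlin-3a and 0.999974 without. This fit has no term for the replicate number, although libraries with the same number deviated together. Its p-values for the treatment comparisons, here and below, are therefore too large, and its counts of 0 carry little weight. Fits with the numbers as a block are given further on.

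The intervals bound the change, and they narrow when same-numbered libraries are fitted as a block. With Nutlin-3a, the 95% interval of the fold change lay within 1.5-fold either way for 20 of 33 members (31 with the block) and within 2-fold for 33 of 33. Without Nutlin-3a it lay within 1.5-fold for 26 (32 with the block) and within 2-fold for 33. Over both media together, 0 members were called (background 0%; 0 at an unadjusted p under 0.05, background 0.219%), and 29 of 33 intervals lay within 1.5-fold (33 with the block). MED20 had the widest interval and MED15 the narrowest.

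**Figure D3:**
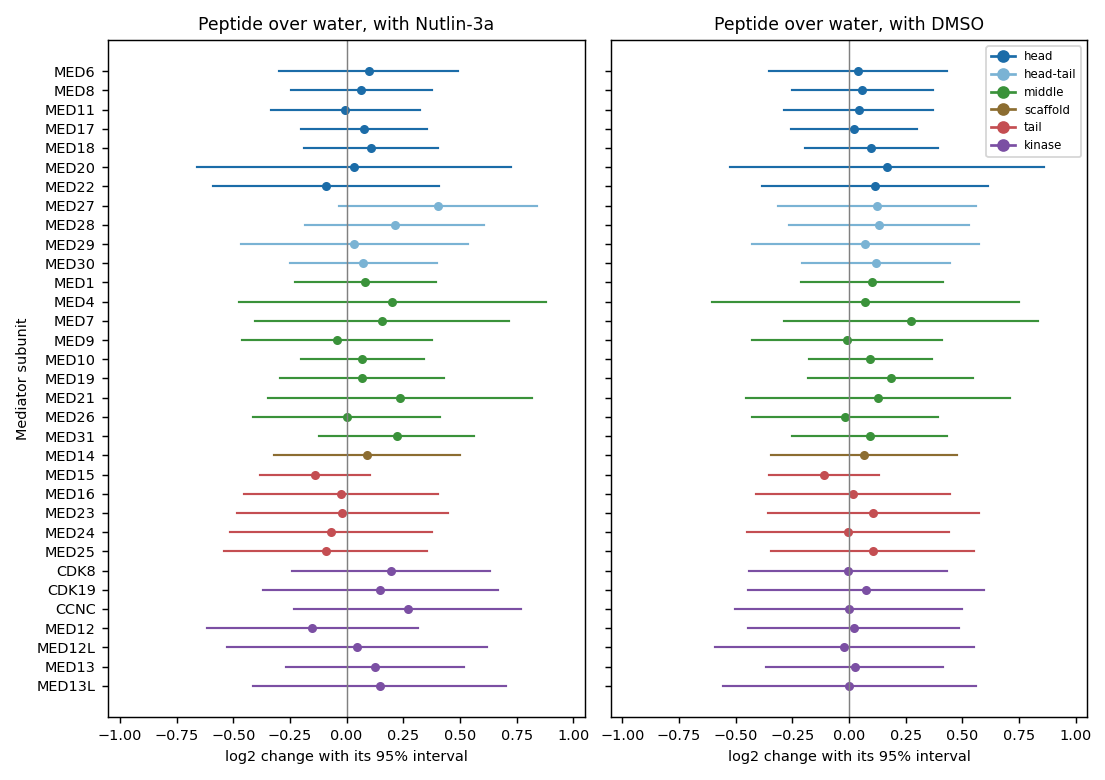
Log2 change of each subunit, peptide over water, with its 95% interval from limma, with Nutlin-3a at the left and with DMSO at the right, coloured by module. Every interval crosses 0, and the point farthest from 0 is MED27 with Nutlin-3a at 0.40.

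The members' median log2 change, peptide over water, was 0.07 with Nutlin-3a, where the median of all genes was 0.03, and 0.07 without it, where all genes stood at 0.03. Above 0 were 24 of 33 members with Nutlin-3a (58.4% of all genes) and 26 without it (62.0% of all genes). Leaving out the library that stood apart put the member median with Nutlin-3a at 0.01, with 19 of 33 above 0. With Nutlin-3a the median member change was -0.01 in experiment 2 and 0.24 in experiment 1, and without it 0.08 in experiment 2 and 0.06 in experiment 1. By module, the median with Nutlin-3a was 0.07 in the head, 0.08 in the middle, 0.14 over MED27 to MED30, -0.07 in the tail and 0.15 in the kinase module, and MED14 was at 0.09. Without Nutlin-3a it was 0.06 in the head, 0.09 in the middle, 0.12 over MED27 to MED30, 0.02 in the tail and 0.00 in the kinase module, and MED14 was at 0.06.

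The contrast between a low tail and a high kinase module with Nutlin-3a rested on the library that stood apart. Without it, the kinase module's median was -0.04, with 1 of 7 members above 0 in place of 6, and the tail's was 0.05, with 3 of 5 above 0 in place of 0. The sign of 15 of 33 members changed when it was left out, among them CDK8, CCNC, MED13, MED13L, MED12L and MED14. The 4 members MED27 to MED30 were above 0 with and without it, with medians of 0.14 and 0.21.

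Among the subunits with a known contact to activators, MED17 and MED1 were not called. With 2 libraries per group in experiment 1, groups without overlap there carry little weight, here and for the subunits below. MED17, the head subunit that p53 binds, had 62.7, 83.2 and 88.3 RPM after scaling in Nutlin-3a and peptide libraries of experiment 2, against 70.3, 80.4 and 92.8 RPM with Nutlin-3a and water. In experiment 1 it had 59.9 and 53.8 RPM with Nutlin-3a and peptide, against 52.1 and 41.4 RPM with Nutlin-3a and water. The ranges overlapped in experiment 2, and in experiment 1 the peptide libraries were the higher, where 41.4 RPM is the library that stood apart. With DMSO it had 69.2, 82.6 and 87.8 RPM with peptide against 65.9, 82.5 and 90.02 RPM with water in experiment 2, and 54.0 and 53.1 RPM with peptide against 52.5 and 51.6 RPM with water in experiment 1, where the peptide libraries were the higher. The log2 change was 0.08 (95% interval -0.20 to 0.36) with Nutlin-3a, or 0.00 without that library, and 0.02 (-0.25 to 0.30) without.

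MED1, the middle subunit through which nuclear receptors and p53 bind, had 124, 161 and 109 RPM with Nutlin-3a and peptide in experiment 2, against 144, 154 and 105 RPM with Nutlin-3a and water. In experiment 1 it had 101 and 92.6 RPM with Nutlin-3a and peptide, against 85.6 and 75.9 RPM with Nutlin-3a and water. The groups overlapped in experiment 2, and in experiment 1 both peptide libraries were the higher, where 75.9 RPM is the library that stood apart. The DMSO libraries had 160.2, 187 and 119 RPM with peptide against 148, 158 and 119.6 RPM with water in experiment 2, and 90.1 and 93.3 RPM with peptide against 85.6 and 88.0 RPM with water in experiment 1, with the same overlap in experiment 2 and none in experiment 1. Its log2 change was 0.08 (-0.23 to 0.39) with Nutlin-3a, or 0.05 without that library, and 0.10 (-0.21 to 0.41) without.

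The backbone subunit MED14 had 55.0, 90.04 and 53.1 RPM with Nutlin-3a and peptide in experiment 2, against 65.4, 86.8 and 49.7 RPM with Nutlin-3a and water, and 87.2 and 71.4 RPM with peptide against 79.0 and 53.4 RPM with water in experiment 1. In DMSO it had 64.0, 95.9 and 56.5 RPM with peptide against 62.9, 86.1 and 53.7 RPM with water in experiment 2, and 79.2 and 71.8 RPM with peptide against 75.1 and 72.0 RPM with water in experiment 1. Peptide and water libraries overlapped in both media and both experiments, and the 53.4 RPM is the library that stood apart. The log2 change was 0.09 (-0.32 to 0.50) with Nutlin-3a, or -0.01 without that library, and 0.06 (-0.35 to 0.48) without.

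In the tail, MED15 was the member with the lowest peptide change without Nutlin-3a and the second lowest with it. MED15, a tail subunit that binds SMAD and sterol-responsive activators, had 56.0, 59.0 and 55.7 RPM with Nutlin-3a and peptide in experiment 2, against 51.9, 65.9 and 57.7 RPM with Nutlin-3a and water. In experiment 1 it had 122 and 131 RPM with Nutlin-3a and peptide, against 136 and 178 RPM with Nutlin-3a and water, where 178 RPM is the library that stood apart. The peptide libraries lay below the water libraries in experiment 1 and overlapped them in experiment 2. The DMSO libraries held 55.9, 65.1 and 46.2 RPM with peptide against 57.6, 66.0 and 60.4 RPM with water in experiment 2, and 148 and 147 RPM with peptide against 154 and 153 RPM with water in experiment 1, again with overlap in experiment 2 and none in experiment 1. It was lower in 5 of 5 same-numbered pairs without Nutlin-3a, and the log2 change was -0.11 (-0.35 to 0.13) there and -0.14 (-0.38 to 0.10) with Nutlin-3a, or -0.07 without that library.

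MED23, a tail subunit through which ELK1 and adenoviral E1A act, had 32.6, 53.8 and 52.1 RPM with Nutlin-3a and peptide in experiment 2, against 40.4, 55.7 and 60.3 RPM with Nutlin-3a and water, and 38.8 and 31.6 RPM with peptide against 42.7 and 20.6 RPM with water in experiment 1. In DMSO it had 31.2, 46.3 and 52.5 RPM with peptide against 29.3, 38.8 and 51.5 RPM with water in experiment 2, and 38.5 and 33.5 RPM with peptide against 35.02 and 32.6 RPM with water in experiment 1. The groups overlapped throughout, and the 20.6 RPM is the library that stood apart. Its log2 change was -0.02 (-0.48 to 0.45) with Nutlin-3a and 0.11 (-0.36 to 0.57) without, and without that library the value with Nutlin-3a was -0.23.

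The kinase module showed the same absence of calls. CDK8, its catalytic subunit, had 41.3, 33.1 and 46.6 RPM with Nutlin-3a and peptide in experiment 2, against 36.2, 30.0 and 49.2 RPM with Nutlin-3a and water, and 90.4 and 72.1 RPM with peptide against 91.4 and 42.9 RPM with water in experiment 1. CDK8 in DMSO was at 30.4, 31.2 and 34.6 RPM with peptide against 27.4, 28.7 and 39.6 RPM with water in experiment 2, and 93.3 and 83.3 RPM with peptide against 92.0 and 89.9 RPM with water in experiment 1. All of these groups overlapped, and the 42.9 RPM is the library that stood apart. On the log2 scale the change was 0.20 (-0.24 to 0.63) with Nutlin-3a, or -0.03 without that library, and 0.00 (-0.44 to 0.43) with DMSO.

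CDK19, the paralog that replaces CDK8 in some complexes, had 32.4, 19.5 and 20.2 RPM with Nutlin-3a and peptide in experiment 2, against 34.3, 17.6 and 17.3 RPM with Nutlin-3a and water, and 30.2 and 24.3 RPM with peptide against 30.4 and 17.5 RPM with water in experiment 1. CDK19 in DMSO was at 36.2, 16.4 and 19.5 RPM with peptide against 31.7, 16.8 and 19.4 RPM with water in experiment 2, and 31.6 and 28.2 RPM with peptide against 28.3 and 27.1 RPM with water in experiment 1. Replicate 1 of experiment 2 was high in all 4 groups, and peptide and water overlapped, where 17.5 RPM with Nutlin-3a and water is the library that stood apart. The log2 change was 0.15 (-0.37 to 0.67) with Nutlin-3a, or 0.01 without that library, and 0.07 (-0.44 to 0.59) without.

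Cyclin C (CCNC) had the second highest peptide change with Nutlin-3a. It had 90.9, 116 and 88.6 RPM with Nutlin-3a and peptide in experiment 2, against 109.9, 110.4 and 82.3 RPM with Nutlin-3a and water, and 51.9 and 39.8 RPM with peptide against 49.2 and 15.1 RPM with water in experiment 1. CCNC in DMSO was at 104, 107 and 94.6 RPM with peptide against 90.7, 112 and 87.1 RPM with water in experiment 2, and 48.1 and 41.2 RPM with peptide against 50.2 and 47.1 RPM with water in experiment 1. All groups overlapped, and the 15.1 RPM is the library that stood apart. The log2 change with Nutlin-3a was 0.27 (-0.23 to 0.77), or -0.06 without that library, and 0.00 (-0.50 to 0.50) with DMSO.

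MED12, which activates CDK8 within the module, had the lowest peptide change with Nutlin-3a. It had 34.95, 35.3 and 20.6 RPM with Nutlin-3a and peptide in experiment 2, against 30.0, 40.4 and 24.5 RPM with Nutlin-3a and water, and 33.1 and 35.9 RPM with peptide against 34.3 and 50.6 RPM with water in experiment 1. MED12 in DMSO was at 31.4, 42.5 and 17.5 RPM with peptide against 32.2, 37.7 and 21.9 RPM with water in experiment 2, and 37.1 and 38.5 RPM with peptide against 33.5 and 34.8 RPM with water in experiment 1. Groups overlapped except with DMSO in experiment 1, where both peptide libraries were the higher. Its log2 change was -0.15 (-0.62 to 0.31) with Nutlin-3a, or -0.06 without the library that stood apart, and 0.02 (-0.45 to 0.49) without Nutlin-3a.

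Its paralog MED12L had 5.75, 10.7 and 5.68 RPM with Nutlin-3a and peptide in experiment 2, against 5.85, 13.2 and 5.36 RPM with Nutlin-3a and water, and 49.6 and 39.1 RPM with peptide against 49.1 and 28.4 RPM with water in experiment 1. MED12L in DMSO was at 6.31, 11.2 and 4.69 RPM with peptide against 6.57, 10.6 and 5.36 RPM with water in experiment 2, and 49.2 and 45.4 RPM with peptide against 48.8 and 44.2 RPM with water in experiment 1. Peptide and water overlapped throughout, whereas no library of experiment 2 passed 13.2 RPM and none of experiment 1 was under 28.4 RPM. On the log2 scale the change was 0.05 (-0.53 to 0.62) with Nutlin-3a, or -0.11 without the library that stood apart, which held the 28.4 RPM, and -0.02 (-0.59 to 0.55) without.

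MED13, the subunit that joins the kinase module to the core, had 244, 274 and 196 RPM with Nutlin-3a and peptide in experiment 2, against 269, 271 and 183 RPM with Nutlin-3a and water, and 382 and 308 RPM with peptide against 371 and 202 RPM with water in experiment 1. MED13 in DMSO was at 300.4, 292 and 187 RPM with peptide against 277, 262 and 201 RPM with water in experiment 2, and 385 and 348 RPM with peptide against 384 and 359 RPM with water in experiment 1. Its paralog MED13L had 201, 273 and 147 RPM with Nutlin-3a and peptide in experiment 2, against 197, 277 and 135 RPM with Nutlin-3a and water, and 916 and 762 RPM with peptide against 938 and 491 RPM with water in experiment 1. Both overlapped between peptide and water, and in experiment 2 replicate 3 was the lowest of each group. With DMSO MED13L had 220.5, 305 and 117 RPM with peptide against 195, 256 and 141 RPM with water in experiment 2, and 943 and 856 RPM with peptide against 977 and 924 RPM with water in experiment 1. With Nutlin-3a the log2 change was 0.12 (-0.27 to 0.52) for MED13 and 0.15 (-0.41 to 0.70) for MED13L. Without the library that stood apart, which held the 202 RPM of MED13 and the 491 RPM of MED13L, it was -0.04 for MED13 and -0.03 for MED13L.

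The balance between kinase module paralogs did not differ detectably with the peptide. Within a library such a ratio depends on scaling only through the pseudocount. The median CDK8 over CDK19 ratio was 1.71 among libraries of experiment 2 and 2.98 among those of experiment 1. MED12 over MED12L stood at 3.94 in experiment 2 and 0.772 in experiment 1, and MED13 over MED13L at 1.35 in experiment 2 and 0.405 in experiment 1. These are ratios of RPM with no length. Per kb, CDK8 over CDK19 was 1.56 in experiment 2 and 2.72 in experiment 1, MED12 over MED12L was 57.6 in experiment 2 and 11.3 in experiment 1, and MED13 over MED13L was 3.4999 in experiment 2 and 1.053 in experiment 1, so MED12L and MED13L exceeded their paralogs in experiment 1 only when length was left out. The log2 ratio, peptide minus water, differed by -0.01 for CDK8 over CDK19 (exact permutation test over 14400 arrangements, two-sided p = 0.930), by -0.10 for MED12 over MED12L (p = 0.696) and by 0.01 for MED13 over MED13L (p = 0.909). Adjusted over the 3 ratios, each of these permutation p-values was 0.930. The peptide difference of CDK8 over CDK19 was -0.02 in experiment 2 and -0.01 in experiment 1, that of MED12 over MED12L 0.00 in experiment 2 and -0.19 in experiment 1, and that of MED13 over MED13L -0.03 in experiment 2 and 0.04 in experiment 1. The MED12 over MED12L values include the library that stood apart, whose ratio of 1.78 was the highest of experiment 1. Over both media, limma's peptide change was -0.07 for MED12 and 0.01 for MED12L. Without that library the changes were -0.02 for MED12 and -0.07 for MED12L, the opposite order. Of 10 same-numbered pairs, 3 had the higher CDK8 over CDK19 ratio with peptide, 6 the higher MED12 over MED12L ratio and 5 the higher MED13 over MED13L ratio.

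MED27, at the junction of head and tail, had the highest peptide change with Nutlin-3a and is the member that came closest to a call. It had 3.96, 6.64 and 3.36 RPM with Nutlin-3a and peptide in experiment 2, against 2.35, 3.89 and 2.91 RPM with Nutlin-3a and water, and 8.39 and 6.89 RPM with peptide against 7.35 and 5.47 RPM with water in experiment 1. Every peptide library lay above the water library of its replicate number, while the groups overlapped in both experiments. In DMSO MED27 was at 3.14, 6.85 and 4.66 RPM with peptide against 3.91, 5.45 and 3.497 RPM with water in experiment 2, and 7.54 and 7.13 RPM with peptide against 6.77 and 6.71 RPM with water in experiment 1, with overlap in experiment 2 and none in experiment 1. The log2 change was 0.40 (-0.03 to 0.84) with Nutlin-3a, with 0.51 in experiment 2 and 0.24 in experiment 1, and 0.12 (-0.31 to 0.56) without. Leaving out the library that stood apart, which held the 5.47 RPM, gave 0.39 with Nutlin-3a. With Nutlin-3a the unadjusted limma p was 0.0691, and 0.00234 with same-numbered libraries as a block, where the adjusted p was 0.622.

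Same-numbered libraries of an experiment were also compared in pairs. With Nutlin-3a, MED27 and MED28 were higher with peptide in 5 of 5 pairs, 6.06% of members against 4.32% of all genes, and 0 members were lower in all 5 (2.88% of all genes). Without Nutlin-3a, MED7, MED10, MED19, MED21 and MED23 were higher in 5 of 5 pairs, 15.2% of members against 6.32% of all genes, and MED15 was lower in 5 of 5, 3.03% against 2.95%. With each number's values averaged over the media, MED8, MED19, MED27, MED28, MED31 and CDK19 were higher in 5 of 5, 18.2% of members against 7.83% of all genes, and 0 were lower in all 5 (3.17% of all genes). With the numbers as a block, limma called 0 members in either medium (background 0%). At an unadjusted p under 0.05 the block gave 2 members with Nutlin-3a (MED27 and MED28; background 7.89%), 0 without (background 1.12%) and 2 over both media (MED27 and MED28; background 6.6%). MED28 is named after its values were seen.

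MED7 and MED19, both in the middle, had the highest peptide changes without Nutlin-3a. With DMSO, MED7 had 3.18, 5.30 and 3.01 RPM with peptide against 2.26, 4.71 and 2.63 RPM with water in experiment 2, and 3.20 and 2.91 RPM with peptide against 3.04 and 1.80 RPM with water in experiment 1. With Nutlin-3a it had 2.73, 5.91 and 3.06 RPM with peptide against 4.04, 4.75 and 3.18 RPM with water in experiment 2, and 3.12 and 2.53 RPM with peptide against 3.03 and 1.04 RPM with water in experiment 1. The groups overlapped in each case, and the 1.04 RPM is the library that stood apart. The log2 change without Nutlin-3a was 0.27 (-0.29 to 0.83).

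MED19 had, with DMSO, 19.1, 15.9 and 25.1 RPM with peptide against 19.01, 14.0 and 17.9 RPM with water in experiment 2, and 6.01 and 6.88 RPM with peptide against 5.61 and 6.07 RPM with water in experiment 1. With Nutlin-3a it had 16.8, 12.2 and 19.1 RPM with peptide against 13.6, 12.96 and 20.4 RPM with water in experiment 2, and 7.30 and 7.17 RPM with peptide against 6.74 and 6.63 RPM with water in experiment 1. Groups overlapped except with Nutlin-3a in experiment 1, where both peptide libraries were the higher, and the log2 change without Nutlin-3a was 0.18 (-0.18 to 0.55). In experiment 2, where each group has 3 libraries, 0 of 33 members had peptide and water groups without overlap in either medium, against 0.583% of all genes higher and 0.652% lower with Nutlin-3a, and 0.401% higher and 0.251% lower without. No member kept its groups apart in both experiments, against 0.0815% of all genes higher and 0.0627% lower with Nutlin-3a, and 0.138% higher and 0.0313% lower without.

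Nutlin-3a also left the subunits without a call. Against DMSO, 0 of 33 members were called without peptide (background 0%; 0 at an unadjusted p under 0.05, background 0.595%) and 0 with peptide (background 0%; 0 at an unadjusted p under 0.05, background 0.157%), by limma and by limma-voom. Without peptide the member median was -0.06, where all genes stood at -0.02, and with peptide it was -0.04, where all genes stood at -0.02. The extremes without peptide were CCNC at -0.29 and MED25, a tail subunit, at 0.23, and both rested on the library that stood apart, without which CCNC was at 0.03 and MED25 at 0.09. The extremes were then MED27 at -0.29 and MED23 at 0.37. With peptide they were MED26 at -0.17 and CDK8 at 0.14. In the kinase module the median without peptide was -0.10, with 1 of 7 above 0, or 0.03, with 5 of 7 above 0, when the library that stood apart was left out. The member median without peptide was -0.04 in experiment 2 and -0.04 in experiment 1, and with peptide -0.08 in experiment 2 and 0.04 in experiment 1. The 95% interval lay within 1.5-fold for 17 of 33 members without peptide (32 with the block) and for 26 with it (33 with the block). In same-numbered pairs without peptide, MED1, MED6, MED10 and MED28 were lower with Nutlin-3a in 5 of 5, 12.1% of members against 3.84% of all genes, and 0 were higher (3.17% of all genes). With peptide MED22 and MED26 were lower in 5 of 5, 6.06% against 3.38% of all genes, and 0 were higher (1.57% of all genes). The block gave 3 members at an unadjusted p under 0.05 without peptide (MED25, MED26 and MED27; background 7.36%) and 0 with it (background 1.85%), and it called 0 (background 0%). In experiment 2, 0 members had Nutlin-3a and DMSO groups without overlap. All genes did so in 1.13% (higher) and 1.32% (lower) without peptide and in 0.877% and 1.03% with it. Apart in both experiments were 0 members, against 0.175% and 0.15% of all genes without peptide and 0.0627% and 0.0815% with it.

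The peptide response with Nutlin-3a minus that with DMSO had a member median of 0.01, where all genes stood at 0.01, and 0 of 33 members were called (background 0%; 0 at an unadjusted p under 0.05, background 0.182%; 0 by limma-voom; 0 at an unadjusted p under 0.05 with the block, background 1.82%). In same-numbered pairs 0 members had the same sign in all 5, against 1.5% of all genes higher and 2.11% lower. The values ran from -0.21 for MED22 (-0.91 to 0.50) to 0.28 for MED27 (-0.34 to 0.90). Without the library that stood apart MED22 was at -0.05, MED7 was the lowest at -0.36, MED27 was still the highest at 0.27, and the member median was -0.04, with 11 of 33 above 0 in place of 17. The member median was -0.07 in experiment 2 and 0.14 in experiment 1. The interval lay within 1.5-fold for 8 of 33 members and within 2-fold for 31, and with the block within 1.5-fold for 29 and within 2-fold for 33.

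Genes that work beside Mediator were counted in the same fits. With Nutlin-3a, 0 of 12 RNA polymerase II subunits, 0 of 18 general initiation factors and 0 of 18 other coactivators were called for the peptide. Their median log2 changes were 0.09 for the polymerase, 0.14 for the initiation factors and 0.03 for the coactivators, where all genes stood at 0.03. These medians include the library that stood apart, without which the median of the 33 members moved from 0.07 to 0.01. Medians of these lists without that library are not given here. Without Nutlin-3a the medians were 0.06 for the polymerase, 0.05 for the initiation factors and 0.00 for the coactivators, again with 0 called in each list, and limma-voom called 0 genes in either medium.

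The experiments differed far more than the treatments. Of the 33 members, 23 were called between experiment 2 and experiment 1 by limma, 14 higher and 9 lower in experiment 2, which is 69.7% on a background of 71.4% of all genes. At an unadjusted p under 0.05 the count was again 23, on a background of 73.5%. The split by direction depends on the scaling: 18 of 25 called members were higher in RPM without further scaling and 12 of 23 by median-of-ratios factors. Of all genes called, 6109 of 11392 were higher, and 7940 of 11728 without further scaling. These fits treat the 12 and 8 libraries as independent, although same-numbered libraries deviated together, so the p-values are too small. Over 5 means, 3 replicate numbers in experiment 2 against 2 in experiment 1, limma called 11 of 33 members, on a background of 33.6% of all genes, 6 higher (MED10, MED19, MED21, MED30, MED31 and CCNC) and 5 lower (MED15, MED26, CDK8, MED12L and MED13L). With the libraries as units, 7 of 9 were higher and 2 lower in the middle, in the head 4 of 7 were higher, in the tail 1 of 5 was higher and 2 lower, and in the kinase module 1 of 7 was higher and 4 lower. Over the means the head had 0 of 7 called and the kinase module 1 higher and 3 lower. By limma on the libraries, MED31, a conserved middle subunit, was higher by 1.42 on the log2 scale (SE 0.12, adjusted p = 3.18e-09), MED10 by 1.34 (SE 0.09, adjusted p = 2.56e-10), MED19 by 1.30 and CCNC by 1.28. By the same limma test MED12L was lower, with a log2 change of -2.52 (SE 0.20, adjusted p = 1.39e-09), as were MED13L at -2.08 (SE 0.19, adjusted p = 1.35e-08), MED26, a middle subunit that recruits elongation factors, at -1.34, MED15 at -1.32 and CDK8 at -1.17. Among genes that work beside Mediator, limma called 10 of 12 RNA polymerase II subunits higher and 1 lower, 8 of 18 initiation factors higher and 5 lower, and 3 of 18 other coactivators higher and 12 lower. Over the means these counts were 6 higher and 0 lower for the polymerase, 4 and 2 for the initiation factors, and 0 and 4 for the coactivators.

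The difference followed the length of the row. Over the 33 members, Spearman's rho between the log2 change and the log2 row span was -0.50, and over the 15958 genes tested it was -0.49, as a description across genes measured in the same libraries. The 4 longest rows, MED12L (346.0 kb), MED13L (318.6 kb), CDK8 (149.5 kb) and CDK19 (136.2 kb), were at -2.52, -2.08, -1.17 and -0.25. Against transcript GC content rho was -0.37 over the members and 0.02 over the 14871 tested genes with a value. In RPM without further scaling the median of all genes moved by more than 0.1, to 0.42 in place of 0.09, and that of the members to 0.47 in place of 0.10.

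**Figure D4:**
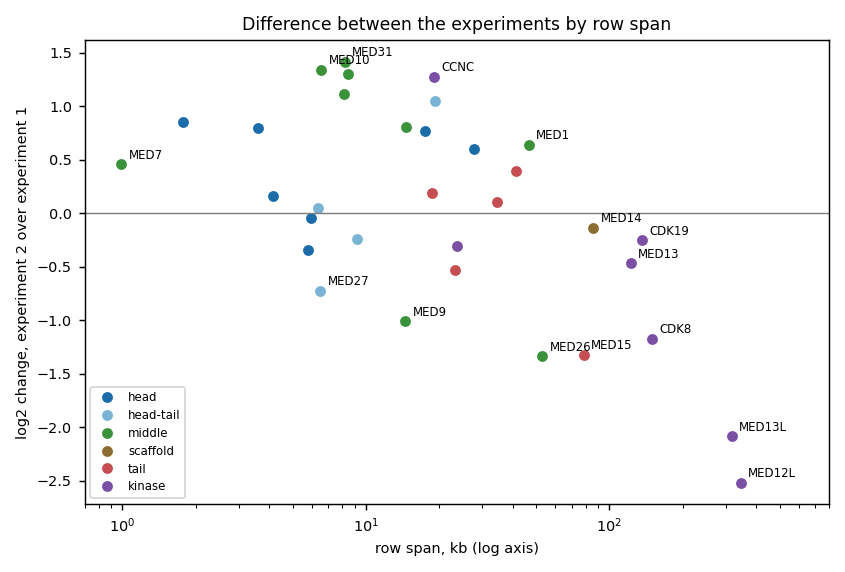
Log2 change of each subunit, experiment 2 over experiment 1, against the span of its row in kilobases on a log axis, coloured by module. MED31, MED10 and CCNC lie above 1.2, and MED13L and MED12L, with the longest rows, lie under -2.

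Within experiment 2, replicate number divided the libraries more than treatment did. The share of a member's log2 variation among the 12 libraries that lay between the 3 replicate numbers had a median of 85.7% (51.8% to 96.1%), and the share between the 4 treatment groups a median of 7.56% (0.370% to 31.5%). Over all genes the medians were 86.7% and 5.31%. For 33 of 33 members the number's share was the larger, as for 93.7% of all genes. MED20, a head subunit, had 7.06 to 8.94 RPM in replicate 1, 18.8 to 21.8 RPM in replicate 2 and 18.1 to 25.5 RPM in replicate 3, whatever the treatment. CDK19 went the other way, with 31.7 to 36.2 RPM in replicate 1, 16.4 to 19.5 RPM in replicate 2 and 17.3 to 20.2 RPM in replicate 3. For 22 of 33 members 1 of the numbers stood clear of the others in scaled RPM, against 76.4% of all genes. What a replicate number stands for is not given in the labels.

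**Figure D5:**
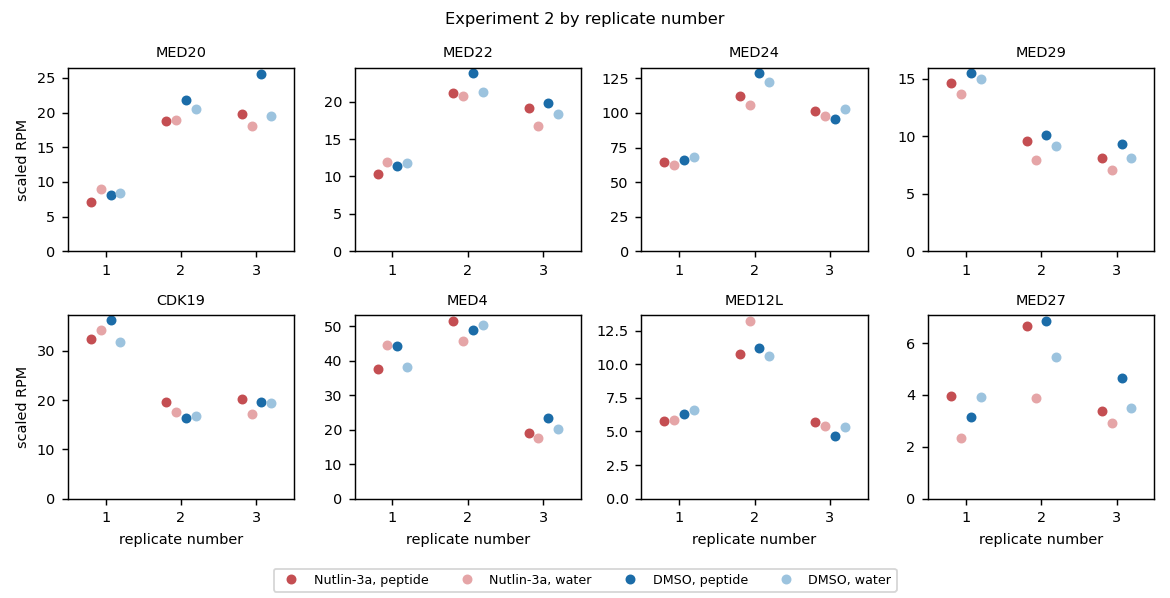
RPM after scaling in the 12 libraries of experiment 2 by replicate number, for 8 subunits, with colours for the 4 treatment groups. The groups lie close together within a number, and the numbers lie apart, as for MED20 at 7.06 to 8.94 in replicate 1 against 18.1 to 25.5 in replicate 3.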

How the data were processed

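Nuclear RNA of 20 libraries was measured by directional sequencing after depletion of ribosomal RNA. Reads were handled with HISAT2, bedtools and limma on hg38, per the submitters' processing notes. The deposited signal values are the authors' reads per 1000000 divided by the row's stop minus its start in kb, as the values themselves show (stop in bases, start in kb): multiplied back, each column sums to 1000000 and every value is a whole number of reads (100% within 0.001). Whether exons or whole spans were counted, and on which strand, is not given in the sources used here.

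Here values were scaled by the trimmed mean of M values (30% and 5% trimmed), genes with a mean under 0.5 RPM were left out, and limma 3.58.1 (R 4.3.3, trend) was fitted to log2(scaled RPM + 0.5), with group and experiment as terms and Benjamini-Hochberg adjustment over 15958 genes at 0.05. Fold changes on that scale understate those of low genes. The script was tested on simulated data with libraries drawn independently. That simulation held no effect of replicate number, so it does not show what size of change could be found here. limma-voom on the recovered reads called 0 genes in each of the 6 treatment comparisons.

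Same-numbered libraries deviated together from their group means (r = 0.286 to 0.586 over 12 pairs in experiment 1 and 0.877 to 0.940 over 18 pairs in experiment 2). In experiment 1, with 2 libraries per group, the deviations within a group mirror each other. Each r there occurs once at either replicate number, so the 12 values are not separate evidence. This pairing comes from the values, and no label states it.

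Values in every library are given for a panel of 12 subunits and for the 2 members with the highest and the 2 with the lowest change in each peptide comparison. Membership goes by symbol, while the choice of this gene family, of the panel and of the other lists was made with earlier results of these data known. Levels per kb are unscaled RPM. Python 3.11.15 drew the figures.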

Additional observations from a re-analysis of the deposited data

How the results depend on the processing

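Members called for the peptide or Nutlin-3a numbered 0 under each scaling, filter, pseudocount, voom, single-experiment and leave-one-out alternative run. The replicate block also called 0 members in each of the 6 comparisons, and with limma-voom it called 3, 0, 0, 10, 16 and 4 of all genes, 0 of them members, so it changed no call. Members called between the experiments numbered 21 to 25 over the alternatives that keep libraries as units, against 23, and 11 over means of same-numbered libraries. An experiment alone was refitted with scaling factors from its own libraries. Its values therefore differ from those by experiment in the Results, which share the scaling over all 20 libraries. The member median for peptide against water under Nutlin-3a was -0.01 in experiment 2 alone, 0.19 in experiment 1 alone and 0.0129 to 0.129 with single libraries left out. The member median for peptide against water without Nutlin-3a was 0.0232 in experiment 1 alone, with or without the block, and 0.0122 to 0.108 with single libraries left out. For Nutlin-3a against DMSO without peptide it was -0.0220 in experiment 1 alone, with or without the block, and -0.0923 to -0.0234 with single libraries left out. With peptide it was 0.0498 in experiment 1 alone, with or without the block. The causes were not tested. Module medians were also set over the median of all members. In RPM with no length these ratios were 0.545 for the head, 0.370 for MED27 to MED30, 1.00 for the middle, 2.14 for MED14, 1.83 for the tail and 1.13 for the kinase module. Per kb in experiment 1 they were 0.765 for MED27 to MED30, 0.825 for the middle and 0.498 for MED14. The tail was at 1.42 and the kinase module at 0.897 there. With MED27 to MED30 counted in the tail, the tail's ratio per kb in experiment 2 was 0.749. The fits that split by experiment, the block without the library that stood apart the restriction to rows with the same coordinates and the means were chosen after seeing the data. Low reads limit MED7, MED11 and MED27 most.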
